A study of Rattus norvegicus with 40 samples.

Results

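Bile acid synthesis was followed through 10 genes, 8 enzymes (Cyp7a1, Cyp7b1, Cyp8b1, Cyp27a1, Hsd3b7, Akr1d1, Slc27a5 and Baat) and 2 nuclear receptors that regulate them (Nr0b2 and Nr1h4), out of 10411 genes measured. The members were chosen by gene symbol, and every probe set whose annotation on the array names a member alone was taken. Each member had exactly 1 probe set, so the set holds 10 of 15866 probe sets. Livers came from male rats of 10 to 12 weeks, 1 array per rat and 4 rats per group, 40 arrays in all. In 4 groups the rats, Long-Evans (L-E), Line C (LnC), Line A (LnA) or Han/Wistar (H/W), had received 100 µg/kg of the dioxin TCDD by gavage 19 h earlier. In 2 further groups, L-E and H/W, livers were taken 3 h after the same dose. The 4 matching groups were given the corn oil vehicle and taken at 19 h, and the 3 h rats have no corn oil group of their own. L-E and LnC rats carry the wildtype aryl hydrocarbon receptor (AHR) and are sensitive to TCDD, whereas LnA and H/W rats carry a receptor with a deletion in the transactivation domain and are resistant. Both lines, LnA and LnC, descend from matings between the H/W and L-E strains. Rats of a treatment group shared a cage, so that cage and group cannot be told apart, and livers were collected in the morning at both times.

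Bile acids are made from cholesterol in hepatocytes. In the classic pathway Cyp7a1 catalyses the first and rate-limiting step, Hsd3b7 and Akr1d1 modify the steroid ring, Cyp8b1 steers the product towards cholic acid and Cyp27a1 oxidises the side chain; Cyp27a1 and Cyp7b1 also carry an alternative pathway. Slc27a5, the bile acyl-CoA synthetase, and Baat then couple the bile acids to coenzyme A and to glycine or taurine. Bile acids returning to the liver activate Nr1h4 (the farnesoid X receptor, FXR), which induces Nr0b2 (the small heterodimer partner, SHP), and Nr0b2 represses Cyp7a1. The mRNA of Cyp7a1 is short-lived and follows the time of day and feeding. TCDD acts through the AHR, which induces the Cyp1 genes in liver.

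The values are log2 signals, on which a difference of 1 is a doubling, and they say nothing of the order of 2 different genes. The median signal of an array lay between 3.52 and 3.76, and a signal under its own array's median was treated as the low end of the scale. Each array correlated with the others of its group at a mean of 0.992 to 0.996. All 7 measured hepatocyte markers lay above the median of every array, with group means of 14.95 to 15.26. The bile duct markers Krt7, Krt19 and Spp1, 3 of 5 measured, were not above every array's median, while Epcam and Slc4a2 were. None of these 12 genes was called in the TCDD comparisons at 19 h. All 6 measured immune cell markers also lay above every array's median, and of these Cd14 alone was called, lower in LnC. Of 9 measured stellate and endothelial cell markers, 5 lay above it and none was called. Cyp1a1, the classic AHR target, was at 14.27 to 14.69 in the 16 TCDD livers of 19 h, at 13.91 to 14.19 in the 8 TCDD livers of 3 h and at 2.13 to 8.60 in the 16 corn oil livers. The high and low values of Cyp1a1 did not overlap, so every array matched its treatment label.

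Cyp7a1 was low in some TCDD livers of 19 h and near the corn oil level in others, and its group SD after TCDD, 1.58 to 3.51, exceeded that of every other member in each strain and line. In L-E rats 19 h after TCDD the 4 livers had 2.45, 8.36, 2.43 and 5.13, against 8.07, 8.41, 9.54 and 10.70 in L-E corn oil rats. In LnC rats the TCDD livers had 2.43, 3.53, 5.81 and 2.47, against 10.27, 10.15, 7.09 and 8.46 in LnC corn oil rats. All 4 LnC livers lay below every corn oil liver of their line, and 3 of 4 did so in L-E. In LnA rats the TCDD livers had 8.77, 9.15, 2.45 and 7.74, against 8.67, 10.20, 9.44 and 7.43 in LnA corn oil rats. In H/W rats the TCDD livers had 3.00, 3.57, 10.38 and 3.55, against 10.37, 10.44, 10.21 and 9.49 in H/W corn oil rats. Thus 1 of 4 LnA livers and 3 of 4 H/W livers were below every corn oil liver of their own group, while H/W replicate 3 stood at the corn oil level. Cyp7a1 was under the array median in 2 L-E, 3 LnC, 1 LnA and 2 H/W livers of 19 h after TCDD, and in 0 of 16 corn oil livers. Among the TCDD livers of 19 h, L-E replicate 2, H/W replicate 3 and LnA replicates 1, 2 and 4 had Cyp7a1 within their corn oil range. Their Cyp1a1 signals were 14.63, 14.54, 14.41, 14.43 and 14.27 in that order, the last being the lowest of the 16 TCDD livers.

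**Figure D1:**
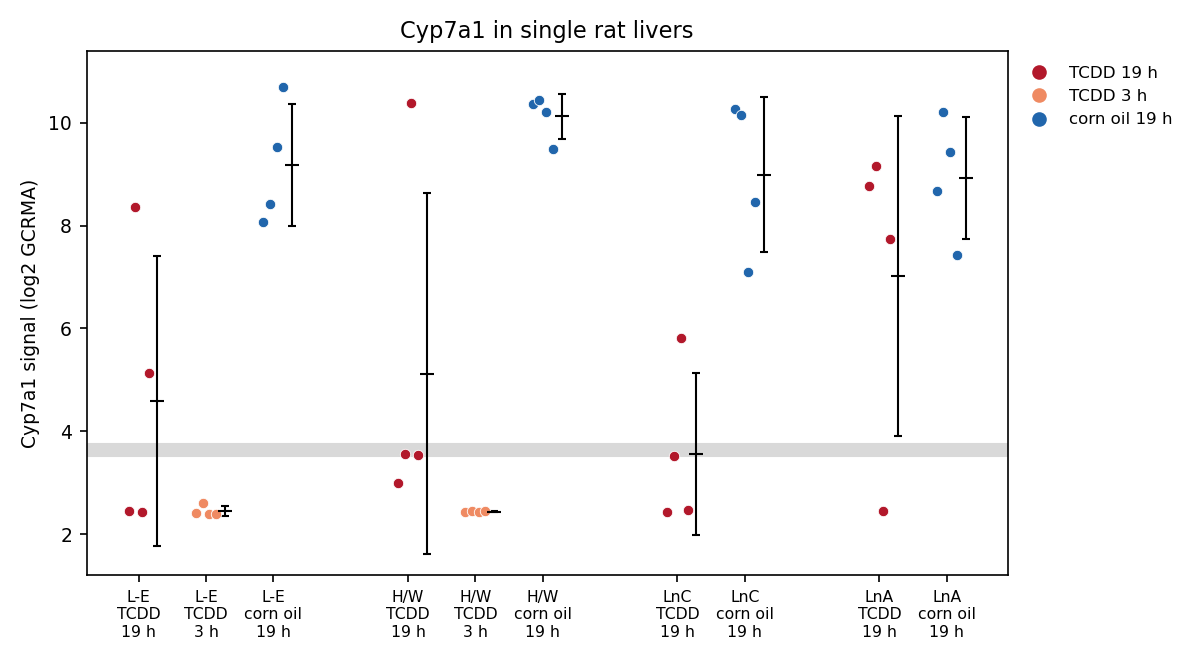
Cyp7a1 log2 signal (y axis) in each rat, by strain or line and treatment (x axis). Points are rats, bars give the mean ± SD of 4, and the grey band is the range of the array medians (3.52 to 3.76). After TCDD at 19 h each group ran from under the band upwards, reaching the corn oil level in L-E, LnA and H/W but not in LnC. All 8 rats of 3 h lay under the band.

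Means of Cyp7a1 were 4.59 ± 2.82 after TCDD and 9.18 ± 1.19 after corn oil in L-E, 3.56 ± 1.58 and 8.99 ± 1.51 in LnC, 7.03 ± 3.11 and 8.93 ± 1.18 in LnA, and 5.12 ± 3.51 and 10.13 ± 0.44 in H/W (SD, n = 4 each). The log2 differences were −4.59 (SE 1.4) in L-E, −5.43 (SE 1.0) in LnC, −1.91 (SE 1.49) in LnA and −5.01 (SE 1.57) in H/W. None passed the threshold of an adjusted p of 0.01 in limma, a moderated linear model with Benjamini-Hochberg adjustment over all genes: the adjusted p was 0.118, 0.0338, 0.756 and 0.232 in that order of strains. The H/W result rested on 1 liver. Without H/W TCDD replicate 3 the difference was −6.76, with an adjusted p of 0.000159 in limma, and Cyp7a1 was called. Without any other H/W array its adjusted p was 0.174 to 0.448, and over the alternatives that kept every array it was 0.0552 to 0.388. The LnA difference also rested on 1 liver and was −0.38 without LnA TCDD replicate 3 (limma adjusted p = 1.0). Cyp7a1 was among the genes the study picked for RT-PCR from its response on these arrays, and Slc27a5 was also named by the study, so neither is independent evidence. By RT-PCR and on its own array values the paper reported medium responses of Cyp7a1, by its size classes, in sensitive and in resistant rats. Its array values came from RMA and those used here from GCRMA, so the sizes are not compared. The paper described Slc27a5 as lowered in sensitive rats only, judged by calls within each strain or line. Its call in LnC, on RMA values, was not seen here, and its own differences were also below 0 in LnA and H/W.

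Across the members, 2 of 10 were called in L-E at 19 h, both lower, where 2.06% of all genes were called in either direction and 1.11% lower. In LnC, LnA and H/W 0 of 10 members were called, against 1.13%, 1.09% and 0.423% of all genes, while 5, 5 and 6 members had an unadjusted p under 0.05 (14.9%, 14.2% and 12.1% of all genes). At an adjusted p of 0.05, L-E had 5 members called, LnC 4, LnA 1 and H/W 0, each lower after TCDD, against 6.49%, 3.63%, 3.21% and 1.48% of all genes in either direction. The median log2 difference of the 10 members was −0.56, −0.48, −0.35 and −0.29 for L-E, LnC, LnA and H/W, while that of all genes was 0.01, 0.00, −0.01 and −0.04. In 8 of 10 members the difference was below 0 in all 4 strains and lines, which held for 15.4% of all genes. In bulk liver, fewer cells of a type and less RNA per cell cannot be told apart.

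**Figure D2:**
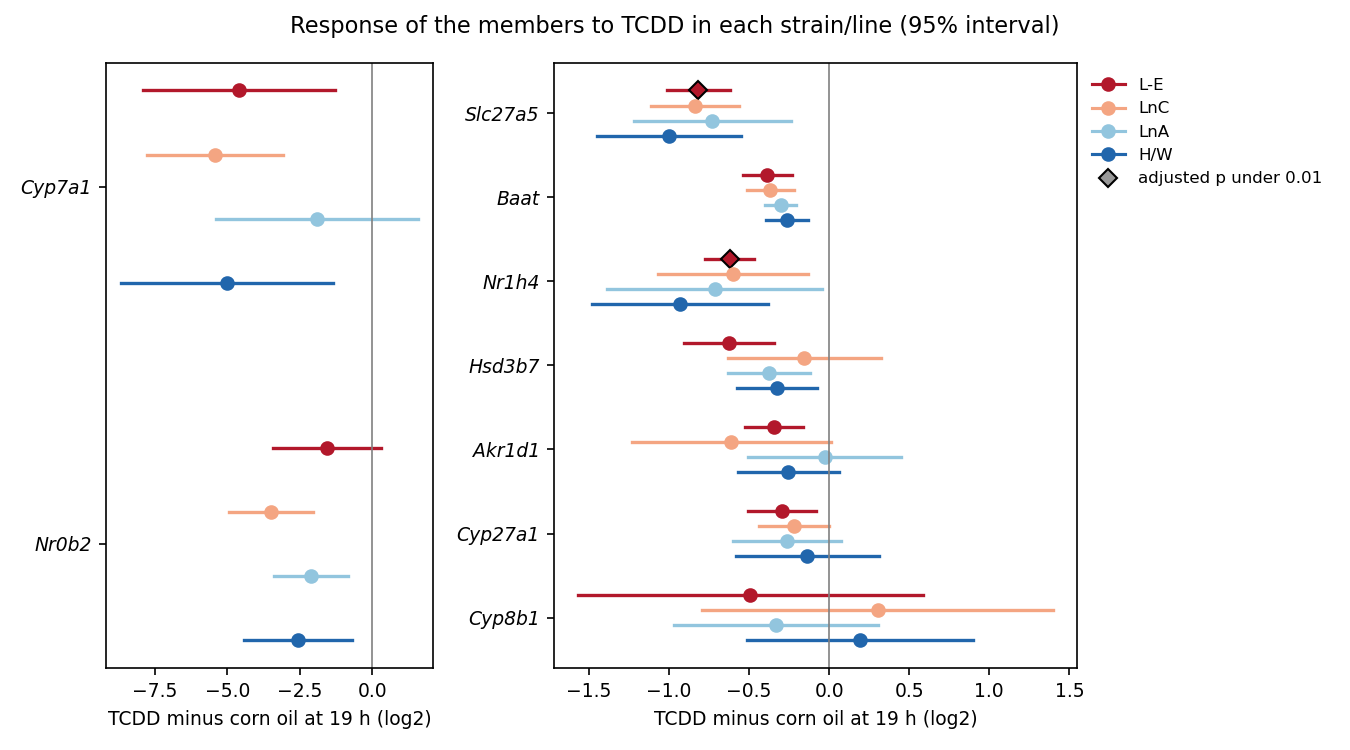
Log2 difference between TCDD and corn oil rats at 19 h (x axis) for each member except Cyp7b1 in the 4 strains and lines, with 95% intervals from limma. Diamonds mark adjusted p under 0.01. Slc27a5 and Nr1h4 in L-E are the 2 diamonds, and the intervals of Cyp7a1 and Nr0b2 are the widest.

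The conjugation enzymes Slc27a5 and Baat lay lower in all 4 TCDD livers than in every corn oil liver of the same strain or line. Slc27a5 in L-E was at 12.55, 12.51, 12.77 and 12.40 after TCDD, against 13.41, 13.37, 13.26 and 13.45 after corn oil. It fell by 0.82 on the log2 scale in L-E (SE 0.08, limma adjusted p = 0.00298). In LnC the TCDD livers had 12.36, 12.17, 11.90 and 12.03, against 12.77, 12.86, 13.04 and 13.13 in corn oil livers. The LnC groups did not overlap, with a difference of −0.84 (SE 0.12) and a limma adjusted p of 0.0119 that missed the threshold. In LnA the TCDD livers had 11.99, 12.09, 11.86 and 11.14, against 12.76, 12.40, 12.42 and 12.41 in corn oil livers. In H/W the TCDD livers had 12.04, 11.49, 12.22 and 11.77, against 12.82, 13.20, 12.97 and 12.52 in corn oil livers. These groups did not overlap either, with differences of −0.73 (SE 0.21, limma adjusted p = 0.140) in LnA and −1.0 (SE 0.19, limma adjusted p = 0.0555) in H/W. In LnC the call was gained without LnC TCDD replicate 1 (limma adjusted p = 0.00909). It was also gained there with the lowest 40% of genes left out (0.00602), a variance trend (0.00690) or array weights (0.00866). In 1 fit over the 8 groups of 19 h the call was gained in LnC (0.00251) and in H/W (0.000521). In L-E it was lost without TCDD replicate 1 or corn oil replicate 1, 2 or 4 (adjusted p 0.0105 to 0.0132), and also with a block for the replicate number (0.0387). Within the scan days of the L-E arrays the difference was −0.87 on day 1, with 1 array per group, and −0.80 on day 2, with 3 per group.

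Baat, which joins bile acids to glycine or taurine, was at 13.18, 13.01, 13.08 and 13.10 in L-E TCDD livers, against 13.42, 13.34, 13.59 and 13.57 in L-E corn oil livers. In LnC it was at 13.23, 13.50, 13.44 and 13.40 after TCDD, against 13.76, 13.86, 13.70 and 13.73 after corn oil. In both, all 4 TCDD livers lay under the lowest corn oil liver. In LnA it was at 13.41, 13.36, 13.34 and 13.41 after TCDD, against 13.67, 13.78, 13.63 and 13.65 after corn oil. In H/W it was at 13.29, 13.20, 13.23 and 13.23 after TCDD, against 13.45, 13.40, 13.63 and 13.51 after corn oil. The difference was small in each, −0.39, −0.37, −0.30 and −0.26 in L-E, LnC, LnA and H/W, with limma adjusted p of 0.0174, 0.0281, 0.0105 and 0.0850, and no call. In 1 fit over the 8 groups of 19 h Baat was called in each (limma adjusted p = 4.07e-05, 0.00013, 0.00208 and 0.00723 in that order). Calls over all genes rose in that fit as well, to 618, 373, 199 and 214, against 214, 118, 113 and 44. In LnA it was also called with probe sets averaged (0.00925) and with array weights (0.00951).

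**Figure D3:**
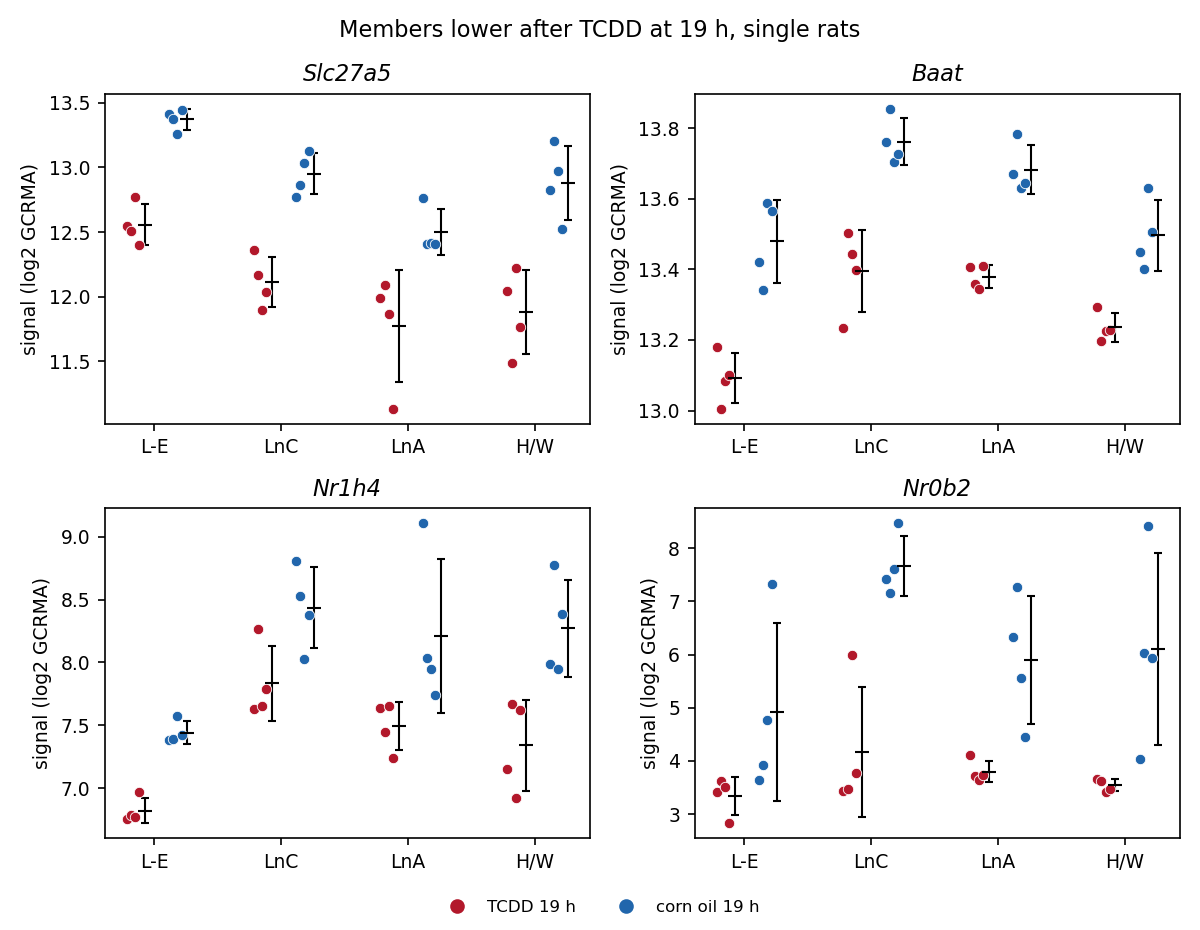
Log2 signal (y axis) of Slc27a5, Baat, Nr1h4 and Nr0b2 in each rat at 19 h by strain or line (x axis), TCDD in red and corn oil in blue, with 4 rats per group. The groups of Slc27a5, Baat and Nr0b2 did not overlap in any strain or line, and those of Nr1h4 overlapped in LnC.

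The stretch of 250 bases before the transcription start is shown for Slc27a5, Baat and Nr0b2, the 3 members whose TCDD livers lay below every corn oil liver in all 4 strains and lines, which 0.826% of all genes did. Sequences are those of RefSeq on rat build GRCr8, 5′ to 3′ on the strand of the gene. Capitals mark matches, on either strand, to GCGTG, the core of the element bound by the AHR, CACGTG, an E-box that clock factors can bind, and TCAAGG, the core of an element bound by Nr5a2, a receptor that activates Cyp7a1 and Nr0b2. The regions are chr1:82699336-82699585 (minus strand) for Slc27a5, chr5:68656138-68656387 (minus strand) for Baat and chr5:151062910-151063159 (plus strand) for Nr0b2.
Slc27a5: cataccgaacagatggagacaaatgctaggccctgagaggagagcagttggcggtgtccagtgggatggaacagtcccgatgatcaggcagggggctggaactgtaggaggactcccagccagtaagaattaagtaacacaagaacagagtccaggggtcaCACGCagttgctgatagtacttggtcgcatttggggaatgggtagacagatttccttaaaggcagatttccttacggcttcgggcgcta
Baat: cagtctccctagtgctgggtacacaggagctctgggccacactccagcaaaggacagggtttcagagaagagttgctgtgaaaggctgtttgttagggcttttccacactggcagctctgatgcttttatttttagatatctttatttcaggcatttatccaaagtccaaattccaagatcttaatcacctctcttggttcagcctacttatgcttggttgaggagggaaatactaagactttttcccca
Nr0b2: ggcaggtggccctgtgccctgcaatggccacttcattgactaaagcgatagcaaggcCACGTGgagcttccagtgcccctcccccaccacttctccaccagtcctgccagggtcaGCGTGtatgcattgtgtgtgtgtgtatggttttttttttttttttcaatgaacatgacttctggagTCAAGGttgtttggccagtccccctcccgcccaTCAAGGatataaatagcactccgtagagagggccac
Slc27a5 held 1 GCGTG match, on the opposite strand and so written CACGC, starting 89 bases before the start. Nr0b2 held 1 GCGTG match at 135 bases, 1 CACGTG match at 193 bases and 2 TCAAGG matches at 69 and 36 bases before the start, none overlapping another. Baat held none of the 3 motifs, nor did Cyp8b1, Cyp27a1 or Hsd3b7, the other members matched in the table of promoters (6 of 10 members). Of 33469 promoters of this length, 25.9% held GCGTG, 5.59% CACGTG and 12.6% TCAAGG. A match is a description of letters in this window. Cyp7a1, Cyp7b1, Akr1d1 and Nr1h4 were not analysed here for promoters.

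Of the regulators, Nr1h4, the bile acid receptor, was at 6.76, 6.79, 6.77 and 6.97 in L-E TCDD livers, against 7.38, 7.39, 7.58 and 7.42 in L-E corn oil livers. It fell by 0.62 (SE 0.06, limma adjusted p = 0.00316), and was the other member called in L-E. The call was lost without L-E TCDD replicate 1 or 3 or corn oil replicate 2 or 4 (adjusted p 0.0104 to 0.0132), with a block for the replicate number (0.0286) and in 1 fit over the 8 groups of 19 h (0.0981). The range over the alternatives other than leaving out an array was 0.00186 to 0.0981. In LnC the TCDD livers had 7.63, 8.27, 7.66 and 7.79, against 8.81, 8.52, 8.03 and 8.38 in corn oil livers, with 1 TCDD liver inside the corn oil range. In LnA the TCDD livers had 7.64, 7.45, 7.65 and 7.24, against 9.11, 8.04, 7.95 and 7.74 in corn oil livers. In H/W the TCDD livers had 7.15, 7.67, 6.92 and 7.62, against 7.99, 8.77, 7.95 and 8.38 in corn oil livers. The LnA and H/W groups did not overlap, and the differences of −0.60, −0.71 and −0.93 for LnC, LnA and H/W did not pass the threshold (limma adjusted p = 0.194, 0.309 and 0.135). Without LnA corn oil replicate 1, the liver at 9.11, the LnA difference was −0.41.

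Nr0b2, the repressor that Nr1h4 induces, was at 3.42, 3.63, 3.52 and 2.82 in L-E TCDD livers, against 3.65, 3.93, 4.76 and 7.32 in L-E corn oil livers. In LnC it was at 3.44, 3.47, 5.99 and 3.77 after TCDD, against 7.42, 7.16, 7.61 and 8.47 after corn oil. Most TCDD livers were thus near the array medians, at the low end of the scale. In LnA it was at 4.10, 3.72, 3.65 and 3.73 after TCDD, against 6.33, 7.28, 5.57 and 4.44 after corn oil. In H/W it was at 3.65, 3.62, 3.42 and 3.47 after TCDD, against 4.03, 6.03, 8.42 and 5.93 after corn oil. The groups did not overlap in any strain or line, although in L-E the nearest livers differed by little. Differences were −1.57, −3.50, −2.10 and −2.56 for L-E, LnC, LnA and H/W, with limma adjusted p of 0.359, 0.0290, 0.10 and 0.230. Without L-E corn oil replicate 4, the liver at 7.32, the L-E difference was −0.76. Without LnC TCDD replicate 3, the liver at 5.99, the LnC difference was −4.11 and was called (limma adjusted p = 0.00340); over the other alternatives the LnC adjusted p ranged from 0.00349 to 0.0896.

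Over all 40 livers, 12 had an Nr0b2 signal above 5, a line set after the values were seen, of which 1 was a TCDD liver, LnC replicate 3. The lowest Cyp7a1 signal among these 12 was 5.81. In the other 28 livers Cyp7a1 ran from 2.39 to 10.38. Nr0b2 above 5 was therefore not seen together with Cyp7a1 under the array median. The liver at 5.81 was LnC TCDD replicate 3 itself, and it lay below every LnC corn oil liver (lowest 7.09). Low Nr0b2 was seen with both low and high Cyp7a1. The arrays share groups and scan days, and no test was made of this relation.

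**Figure D4:**
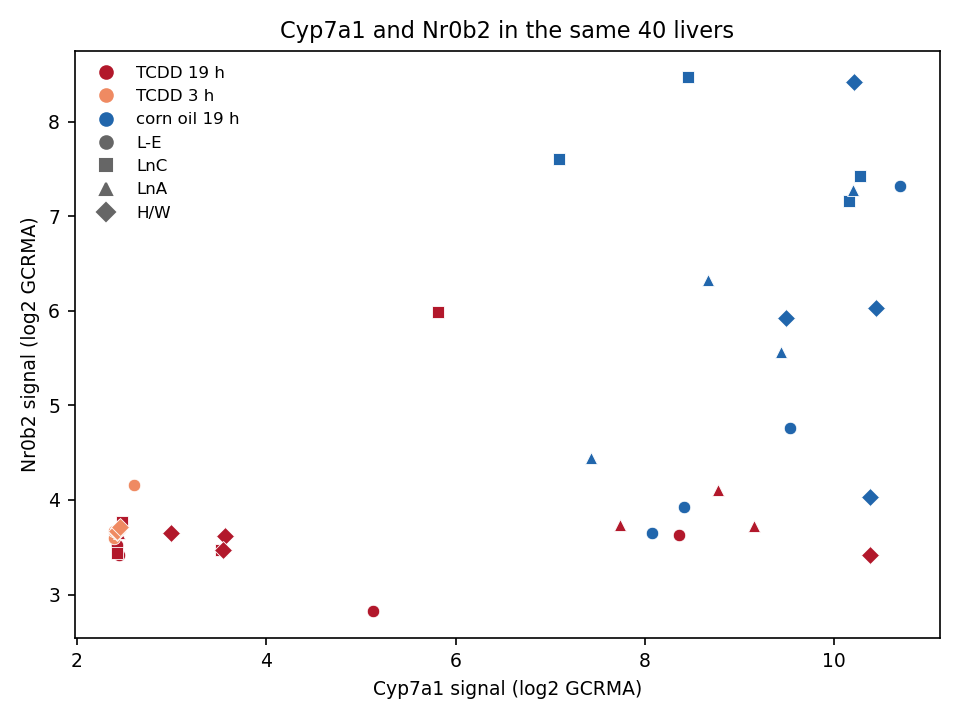
Cyp7a1 log2 signal against Nr0b2 log2 signal in the 40 livers, coloured by treatment and time. The 12 livers with Nr0b2 above 5 all had Cyp7a1 at or above 5.81, and the 28 others covered the range 2.39 to 10.38.

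None of the ring and side chain enzymes was called in any single strain or line at 19 h. Hsd3b7, which acts after Cyp7a1, was at 9.89, 9.91, 9.46 and 9.50 in L-E TCDD livers, against 10.32, 10.25, 10.44 and 10.24 in L-E corn oil livers. The L-E groups did not overlap, with a difference of −0.62 (limma adjusted p = 0.0266). Elsewhere the difference was −0.16 (LnC), −0.38 (LnA) and −0.33 (H/W). Akr1d1, the reductase of the steroid ring, was at 11.15, 11.45, 11.32 and 11.10 in L-E TCDD livers, against 11.63, 11.60, 11.63 and 11.54 in L-E corn oil livers. Its difference was −0.34 in L-E (limma adjusted p = 0.0478), and −0.61, −0.03 and −0.25 for LnC, LnA and H/W. In LnC its TCDD livers had 11.64, 10.68, 10.55 and 10.43, against 11.20, 11.39, 11.52 and 11.63 in corn oil livers, so that 3 were below and 1 was above all corn oil livers.

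Cyp27a1, the side chain oxidase, was at 10.80, 10.96, 11.22 and 11.07 in L-E TCDD livers, against 11.38, 11.36, 11.24 and 11.24 in L-E corn oil livers, with no overlap. Its differences ranged from −0.29 in L-E to −0.14 in H/W, none called. Cyp8b1, which sets the share of cholic acid, differed by −0.49, 0.30, −0.33 and 0.19 in L-E, LnC, LnA and H/W, with limma adjusted p of 0.665 or higher. Its 95% intervals were −1.57 to 0.58, −0.79 to 1.40, −0.97 to 0.31 and −0.51 to 0.90, which include a lower and a higher level in each. Cyp7b1, the oxysterol hydroxylase of the alternative pathway, was at 3.01 to 3.53, under the array median in all 40 arrays, and is given no fold.

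Counting livers rather than fits, the TCDD and corn oil groups did not overlap, with TCDD lower, for 7 members of L-E (5.95% of all genes), 4 of LnC (4.55%), 4 of LnA (4.08%) and 4 of H/W (4.79%). Those in LnA and H/W were Baat, Slc27a5, Nr0b2 and Nr1h4, and those in LnC had Cyp7a1 in place of Nr1h4. No member had non-overlapping groups with TCDD higher, against 7.31%, 5.35%, 4.82% and 3.28% of all genes.

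The mean TCDD response of the 4 strains and lines, fitted over the 32 arrays of 19 h and chosen after the values were seen, gave 6 of 10 members called, all lower, where 13.9% of all genes were called and 6.37% lower. Slc27a5 was lower by a mean difference of −0.84 (limma adjusted p = 2.76e-08) and Baat of −0.33 (2.23e-09). Cyp7a1 differed by −4.23 (SE 0.75, 95% interval −5.77 to −2.70, limma adjusted p = 0.000104), Nr0b2 by −2.43 (1.74e-05), Nr1h4 by −0.72 (3.38e-05) and Hsd3b7 by −0.37 (0.000504). Cyp27a1 with −0.23 (limma adjusted p = 0.0266) and Akr1d1 with −0.31 (0.0257) did not pass. Cyp27a1 was called without H/W corn oil replicate 4 (−0.26, limma adjusted p = 0.00685) and Akr1d1 without LnC TCDD replicate 1 (−0.38, 0.000648).

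To determine whether the response depended on the AHR genotype, the TCDD difference of the sensitive rats (L-E and LnC) was set against that of the resistant rats (LnA and H/W). In limma 0 of 10 members were called, where 0.0961% of all genes were, and 0 had an unadjusted p under 0.05 (7.93% of all genes). For Cyp7a1 the difference between the responses, sensitive minus resistant, was −1.55 (95% interval −4.62 to 1.51, limma adjusted p = 0.604), and it was −0.68 without H/W TCDD replicate 3 and −2.32 without LnA TCDD replicate 3. It was 0.04 for Slc27a5 (95% interval −0.32 to 0.39), −0.09 for Baat (−0.21 to 0.02) and −0.20 for Nr0b2 (−1.74 to 1.34). The intervals of Cyp7a1 and Nr0b2 include large differences either way. In the 6 pairs of strains and lines 0 members were called in limma, against 0.0384% of all genes called for L-E minus H/W, 0.0768% for LnC minus LnA, 0.0384% for L-E minus LnA, 0.00% for LnC minus H/W, 0.00961% for L-E minus LnC and 0.00961% for H/W minus LnA. The members with an unadjusted p under 0.05 were also 0 in each pair, against 9.70%, 4.76%, 5.34%, 5.72%, 5.95% and 5.02% of all genes in that order. The LnC response of Cyp7a1 minus the LnA response was −3.53 (95% interval −7.59 to 0.54, limma adjusted p = 0.981).

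Between corn oil rats of different strains and lines 3 differences of members were called. For L-E minus LnA 2 of 10 members were called (3.90% of all genes), for L-E minus LnC 1 (2.41%), and for L-E minus H/W, LnC minus LnA, LnC minus H/W and H/W minus LnA 0 (0.999%, 0.394%, 1.05% and 1.90%). In these last 4 pairs 5, 2, 2 and 4 members had an unadjusted p under 0.05 (16.9%, 9.45%, 15.2% and 17.4% of all genes). Slc27a5 was higher in L-E than in LnA by 0.87 (SE 0.13, limma adjusted p = 0.00114), with 4 L-E livers at 13.26 to 13.45 and 4 LnA livers at 12.40 to 12.76. Hsd3b7 was lower in L-E than in LnA, by a difference of −0.58 (SE 0.09, limma adjusted p = 0.00149), with L-E at 10.24 to 10.44 and LnA at 10.80 to 11.05. It was also lower in L-E than in LnC (−0.46, limma adjusted p = 0.00832), a call lost without any L-E corn oil array (adjusted p 0.0111 to 0.0268), without LnC corn oil replicate 1, 3 or 4 (0.0179 to 0.0252), and without H/W corn oil replicate 1 or LnA corn oil replicate 1, 3 or 4 (0.0109 to 0.0127). It was lost too with the floor (0.0136) and with the replicate block (0.0180). With each array centred on its median 1 of these 3 calls was left. The LnA and LnC arrays were all scanned on 1 day that held no others, so these differences and the scan day cannot be told apart. Cyp7a1 was not called in any of the 6 pairs, with limma adjusted p of 0.429 or higher.

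At 3 h after TCDD, Cyp7a1 was at the low end of the scale in every liver. The L-E rats had 2.42, 2.60, 2.39 and 2.4 and the H/W rats 2.42, 2.45, 2.43 and 2.46, all under their own array median. With these livers set at their array median, the 3 h signal was at least 49.3-fold lower than that of the L-E corn oil rats of 19 h and at least 92.1-fold lower than that of the H/W corn oil rats. Fitted differences from the corn oil rats were −6.73 in L-E (limma adjusted p = 0.00134) and −7.69 in H/W (4.74e-06), and both were called, that of L-E not with the replicate block (0.0187). Treatment, time since gavage and scan day all change in this comparison and cannot be told apart. The corn oil rats are those of the 19 h comparisons, so these results share them.

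Against the same corn oil rats 2 of 10 members were called at 3 h in L-E (2.55% of all genes) and 1 in H/W (1.09%). Besides Cyp7a1 this was Akr1d1 in L-E, with 10.77, 11.10, 11.13 and 10.85 at 3 h after TCDD, against 11.63, 11.60, 11.63 and 11.54 after corn oil. Akr1d1 differed by −0.64 (limma adjusted p = 0.00765), a call that was lost whichever of the 8 arrays was left out (adjusted p 0.0102 to 0.0245), with the floor (0.0169) and with the replicate block (0.0368). In H/W its livers had 11.24, 11.07, 11.07 and 11.33 at 3 h after TCDD, against 11.82, 12.14, 11.66 and 11.72 after corn oil, with a difference of −0.66 (limma adjusted p = 0.0209). Cyp8b1 was at 9.80, 9.54, 10.42 and 10.49 in L-E rats at 3 h, against 12.55, 12.69, 12.00 and 10.75 in L-E corn oil rats, with no overlap (−1.94, limma adjusted p = 0.0472). In H/W it was at 9.86, 10.26, 10.39 and 9.97 at 3 h, against 10.96, 11.62, 10.44 and 10.43 after corn oil (−0.74, limma adjusted p = 0.201).

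**Figure D5:**
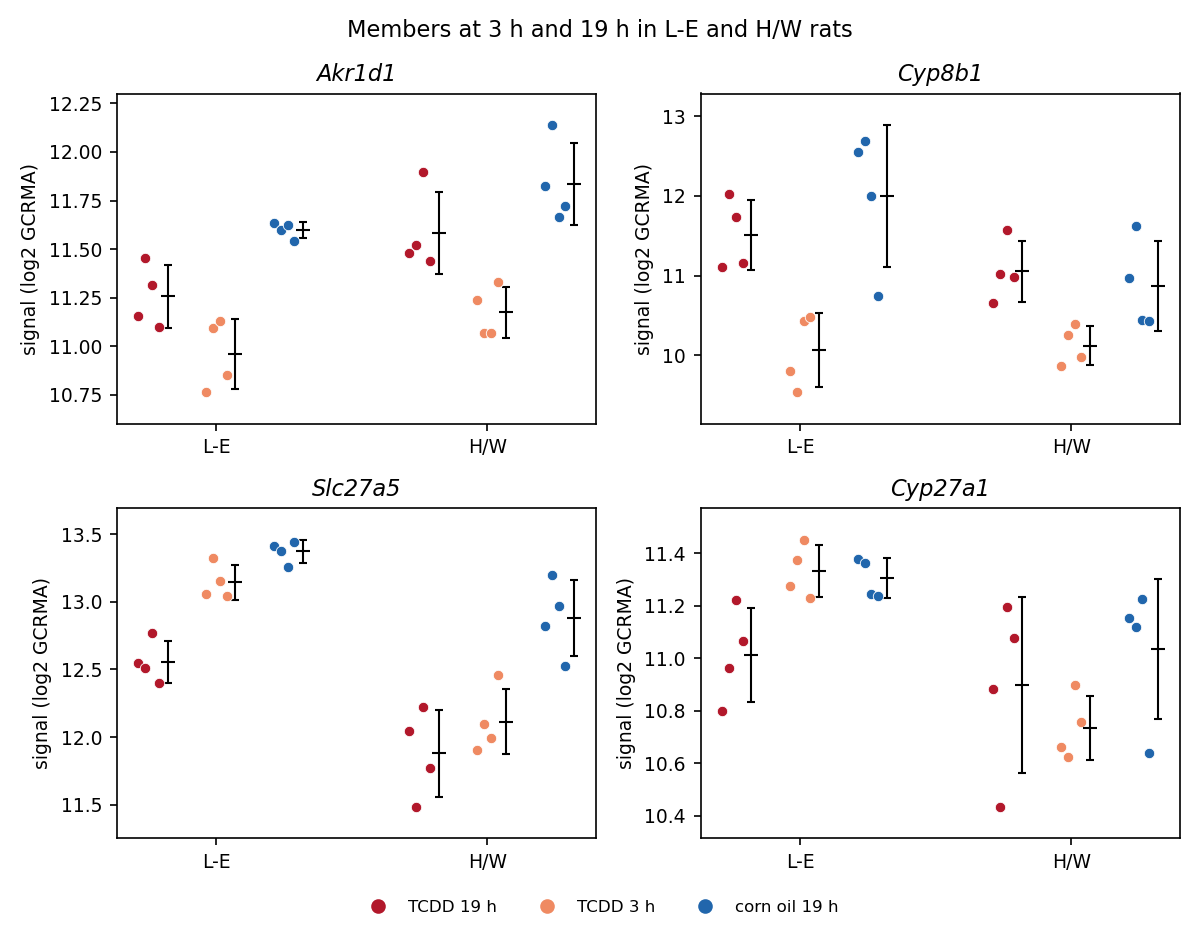
Log2 signal (y axis) of Akr1d1, Cyp8b1, Slc27a5 and Cyp27a1 in each L-E and H/W rat at 19 h after TCDD, 3 h after TCDD and 19 h after corn oil (x axis). Points are rats, 4 per group. Akr1d1 and Cyp8b1 at 3 h lay below all corn oil livers of the strain, and Slc27a5 at 3 h was higher in every L-E than in every H/W liver.

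In L-E, 2 of 10 members were called between 19 h and 3 h after TCDD (4.01% of all genes), both lower at 19 h. Baat was at 13.18, 13.01, 13.08 and 13.10 at 19 h, against 13.38, 13.43, 13.42 and 13.45 at 3 h, and differed by −0.33 (limma adjusted p = 0.00323). Slc27a5 was at 12.55, 12.51, 12.77 and 12.40 at 19 h, against 13.06, 13.33, 13.15 and 13.04 at 3 h, and differed by −0.59 (limma adjusted p = 0.00973). The Baat call was lost without any 3 h array or without TCDD 19 h replicate 3 or 4 (adjusted p 0.0102 to 0.0131), and the Slc27a5 call without any 3 h array or without 19 h replicate 1, 2 or 4 (0.0199 to 0.0304). Both were lost with the replicate block (0.0346 for Baat and 0.0372 for Slc27a5), and that of Slc27a5 also with the floor, quantile normalization, array weights or every probe set tested (0.0108 to 0.0205). In H/W 0 members were called (5.15% of all genes), and 4 had an unadjusted p under 0.05 (23.3% of all genes). Baat was at 13.29, 13.20, 13.23 and 13.23 at 19 h in H/W, against 13.07, 13.07, 12.99 and 13.18 at 3 h, with a difference of 0.16 (limma adjusted p = 0.0616). Cyp8b1 was higher by 1.45 at 19 h than at 3 h in L-E (limma adjusted p = 0.0237) and by 0.94 in H/W (0.0291), in neither case past the threshold. Cyp7a1 differed by 2.14 in L-E and 2.68 in H/W, with limma adjusted p of 0.351 and 0.365. The 3 h arrays were likewise scanned on 1 day without any 19 h array, so time and scan day cannot be told apart.

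Between the strains at 3 h after TCDD, 3 of 10 members were called, all higher in L-E than in H/W (2.18% of all genes in either direction). Slc27a5 was at 13.06, 13.33, 13.15 and 13.04 in L-E and at 11.91, 12.10, 11.99 and 12.46 in H/W, a difference of 1.03 (SE 0.13, limma adjusted p = 0.00602). Cyp27a1 was at 11.27, 11.37, 11.45 and 11.23 in L-E and at 10.66, 10.62, 10.90 and 10.76 in H/W, a difference of 0.60 (limma adjusted p = 0.00602). Baat was higher by 0.34 (limma adjusted p = 0.00508). These 8 arrays were scanned on the same day. Each call was lost when any L-E array was left out and also, for Slc27a5, without H/W replicate 1, 2 or 3, for Cyp27a1 without H/W replicate 1, 2 or 4 and for Baat without H/W replicate 1 or 2 (adjusted p 0.0109 to 0.0211). With every array kept, all 3 calls were lost with a floor at the lowest array median (adjusted p 0.0115 to 0.0147) and with the replicate block (0.0220 to 0.0335), and that of Slc27a5 with quantile normalization (0.0120). In corn oil rats of 19 h the L-E minus H/W difference was 0.49 for Slc27a5, 0.27 for Cyp27a1 and −0.02 for Baat, and none was called. Slc27a5 and Cyp27a1 had an unadjusted p under 0.05 in limma there (16.9% of all genes). For both, every L-E corn oil liver lay above every H/W corn oil liver (2.97% of all genes).

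Of 18 other genes listed as synthesis enzymes, 12 were measured, and 1 was called lower in L-E and in LnC and 0 in LnA and H/W, where 1.11%, 0.490%, 0.355% and 0.106% of all genes were called lower in L-E, LnC, LnA and H/W. This was Acot12, a cytosolic thioesterase that acts on acetyl-CoA and so is no step of bile acid synthesis itself. Its differences were −1.34, −1.07, −1.06 and −0.95 in L-E, LnC, LnA and H/W (limma adjusted p = 0.00371, 0.00186, 0.0136 and 0.0176). The median of the 12 was −0.02, −0.04, 0.00 and −0.13 in that order. Of 15 transporters of bile acids and biliary lipids, 11 were measured, with 3, 1, 3 and 1 called lower (against those same shares of all genes) and 0 higher, and medians of −0.28, −0.43, −0.12 and −0.54. Slco1a1, an organic anion uptake carrier, was called in all 4 and fell by 1.06 in L-E, 0.98 in LnC, 1.17 for LnA and 0.91 for H/W. Its relative Slco1a4 differed by −2.49, −2.44, −1.42 and −2.71 and was called in L-E and LnA. Slc10a1, the main sodium-dependent carrier that takes bile acids into hepatocytes, differed by −0.94, −0.98, −0.67 and −0.86 and was likewise called in L-E and LnA.

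Of 21 other regulators 20 were measured, and 1, 1, 0 and 1 were called in either direction, against 2.06%, 1.13%, 1.09% and 0.423% of all genes. Nr1h3 (LXRα), the oxysterol receptor that activates Cyp7a1 in rodents, differed by 0.74, 0.63, 0.69 and 0.97 and was called higher in LnC and H/W (limma adjusted p = 0.0122, 0.00220, 0.0154 and 0.00188 in L-E, LnC, LnA and H/W). Cebpa, a hepatocyte transcription factor, was called lower in L-E only (−0.87, limma adjusted p = 0.00234), and the difference from the other strains was not tested. The medians of the 20 were 0.01, 0.01, 0.01 and 0.15. Of 9 clock output genes, all measured, 1, 0, 0 and 0 were called, against those same shares, with medians of −0.003, −0.004, −0.016 and −0.016. The 1 called was Per2, a repressor of the circadian clock, higher in L-E (5.30, limma adjusted p = 0.000804). Per2 differed by 3.45, 2.63 and 3.45 in LnC, LnA and H/W without a call. The paper, on RMA values, reported a low induction of Per2 in sensitive and in resistant rats, and a slightly higher one by RT-PCR. Cebpa and Per2 were named after their values were seen.

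Among 519 genes whose 8 group means at 19 h had an SD of at least 0.5, those most like Cyp7a1 by Pearson correlation of the group means were Ptgr1 (0.963), Slc2a2 (0.955), Acy3 (0.953), Cndp2 (0.941) and Slco1a4 (0.935). Slc2a2 encodes the glucose carrier of hepatocytes. Those most opposed were Pmm1 (−0.975), Bbs2 (−0.974), Fam8a1 (−0.971), Elovl5 (−0.961) and Fbxo31 (−0.952). Of the members, Nr0b2 (0.759), Baat (0.722) and Slc27a5 (0.652) followed Cyp7a1 most closely. The 8 points share the split into TCDD and corn oil, and the correlations are a description.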

How the data were processed

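Hepatic mRNA of 40 rats was measured on Affymetrix RAE230A arrays. For each probe set the authors deposited a log2 signal, obtained by GCRMA 2.4.1 with affy 1.10.0 in R 2.3.1 according to the submitters' processing notes. The paper's RMA step, which begins with the probe intensities, was not rerun. GCRMA subtracts background and equalizes arrays. Grouping followed the sample labels, and replicates are separate rats. The scanner files gave the scan days.

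Controls were left out (57), and each of 10411 genes was represented by its probe set with the highest mean. TCDD and corn oil were compared within each strain or line with limma 3.58.1 in R 4.3.3 (lmFit and eBayes), with Benjamini-Hochberg adjustment over all genes and a threshold of 0.01. No genes were filtered out. The scripts were tested on simulated data. Intervals are 95%. A signal under its own array's median was treated as the low end. All 10 members are named, with single-array values for Cyp7a1 and members called in any comparison; genes of other lists are named where called in at least 2 strains or lines, except Cebpa, Per2 and Cd14, named after their values were seen. Members and lists were chosen with earlier results of these data known.

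Replicate numbers are those of the labels. Deviations of same-numbered arrays correlated at 0.119 to 0.164 in LnA TCDD and corn oil rats, the only TCDD and corn oil pair over 0.1 throughout; 0 LnA members were called with or without the block. Alternatives were the probe set rule, low genes, a floor, quantile normalization, median centring, a variance trend, array weights, the threshold, the replicate number or scan day as a block, 1 fit over the groups and leaving out each array.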

Additional observations from a re-analysis of the deposited data

Results flagged for a closer look

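Of 100 groups of 4 rats (10 members in 10 groups), 12 had a rat that stood apart from the other 3 past Dixon's critical value for 4, where chance gives about 1 in 20. Cyp7a1 in H/W TCDD replicate 3 at 19 h was 10.38, against 3.00 to 3.57 in the other 3 rats, and in L-E TCDD replicate 2 at 3 h it was 2.602, against 2.394 to 2.419, under the array median in all 4. Nr0b2 in LnC TCDD replicate 3 at 19 h was 5.993, against 3.436 to 3.768, and in L-E TCDD replicate 2 at 3 h it was 4.157, against 3.60 to 3.677. Thus L-E replicate 2 of 3 h was apart for both genes.

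Nr1h4 in L-E TCDD replicate 4 at 19 h was 6.972, against 6.756 to 6.786, and in H/W TCDD replicate 4 at 3 h it was 6.751, against 7.522 to 7.667. Slc27a5 in LnA corn oil replicate 1 was 12.76, against 12.40 to 12.42. Hsd3b7 in LnA TCDD replicate 4 at 19 h was 10.84, against 10.40 to 10.45, and in H/W TCDD replicate 1 at 3 h it was 10.28, against 10.55 to 10.56. Cyp8b1 in LnA TCDD replicate 1 at 19 h was 10.32, against 9.914 to 9.976, and in LnC corn oil replicate 4 it was 11.39, against 10.68 to 10.73. Cyp27a1 in LnC corn oil replicate 3 was 11.31, against 11.12 to 11.15.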

How the results depend on the processing

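As reported, the members called numbered 2 for L-E, 0 for LnC, LnA and H/W, 0 in the collective and pairwise interactions, 3 between corn oil rats, 2 between 19 h and 3 h, 3 between L-E and H/W at 3 h, 3 between TCDD 3 h and corn oil, and 6 in the mean response. At an adjusted p of 0.05 L-E had 5, LnC 4 and LnA 1, with 9 between corn oil rats, 5 between 19 h and 3 h and 8 between TCDD 3 h and corn oil. In these last 3 the calls over all genes rose as well, to 3135, 2227 and 1375, against 1109, 954 and 379 as reported. With array weights they were 1 in LnC, 1 in LnA, 8 between corn oil rats and 1 between 19 h and 3 h. In 1 fit over the 8 groups of 19 h LnC had 3, LnA 1 and H/W 2. In L-E that fit gained Baat and Hsd3b7 and lost Nr1h4. When probe sets of the same gene were averaged 1 was called in LnA, and with the lowest 40% of genes left out or a variance trend 1 in LnC. Between 19 h and 3 h 1 was called when every probe set was tested, with a floor at the lowest array median and with quantile normalization. The floor left 0 between L-E and H/W at 3 h, and median centring left 1 between corn oil rats.

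With the replicate block 0 members were called in L-E (40 genes in all), 0 between 19 h and 3 h, 0 between L-E and H/W at 3 h and 1 between TCDD 3 h and corn oil. Correlations of same-numbered TCDD and corn oil arrays were 0.066 to 0.287 in L-E, −0.264 to 0.091 in LnC and 0.011 to 0.149 in H/W. In L-E and H/W such arrays also shared a scan day, so number and scan day are partly the same there. Between corn oil rats the Hsd3b7 call for L-E minus LnC was lost with the block (limma adjusted p = 0.0180). The counts for LnC, LnA, H/W and the interactions did not change with it. Leaving out 1 array gave 0 to 2 for L-E, 0 to 1 for LnC, 0 to 0 for LnA, 0 to 1 for H/W, 0 to 0 for the interactions, 2 to 5 between corn oil rats, 0 to 2 between 19 h and 3 h, 0 to 2 between L-E and H/W at 3 h, 2 to 3 between TCDD 3 h and corn oil and 6 to 7 in the mean response.

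With array weights Akr1d1 in LnA was 0.14 and Cyp8b1 in H/W −0.073, and with median centring the Slc27a5 interaction was −0.017, each of opposite sign to the reported value. Leaving out 1 array turned the sign of Cyp8b1 in LnC (−0.084 to 0.60), Hsd3b7 in LnC (−0.27 to 0.025), Akr1d1 in LnA (−0.16 to 0.15), Cyp27a1 in H/W (−0.27 to 0.018), and the interactions of Slc27a5 (−0.068 to 0.10) and Nr0b2 (−0.59 to 0.20). The other single-gene results kept their direction in all settings run. Scaling moved the median of all genes by under 0.1, while median centring changed the genes called higher and lower in LnA to 37 and 7, against 76 and 37 as reported, and in H/W to 24 and 3, against 33 and 11. Over the settings that kept the threshold and all arrays, the genes called in all ran from 40 (replicate block) to 618 (1 fit) in L-E, against 214 as reported, from 5 (block) to 373 (1 fit) in LnC, against 118, from 11 (block) to 199 (1 fit) in LnA, against 113, and from 15 (floor) to 214 (1 fit) in H/W, against 44. With the block they were 161 between 19 h and 3 h, against 954, 33 between L-E and H/W at 3 h, against 227, 3 between TCDD 3 h and corn oil, against 379, and 4 in the pairwise interactions, against 18, and with array weights 2240 between corn oil rats, against 1109. The causes were not tested. Signals under the array medians (Cyp7a1 and Nr0b2 after TCDD, Cyp7b1 throughout) limit how large a fall can be measured. Background correction could not be varied on summarised signals, and a scan day block could not be fitted in LnA, LnC or at 3 h.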
